A study of Sus scrofa with 12 samples.

Results

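The genes described here are 10 genes of the contractile machinery known from smooth muscle, TAGLN, ACTA2, LMOD1, MYL9, CNN1, TPM1, TPM2, ACTG2, CALD1 and MYH9, in pig induced pluripotent stem cells. They are 10 of the 24358 genes in the expression tables, and each was found by its symbol on 1 identifier. They were picked with their values in both comparisons known, among them the higher ACTA2 and LMOD1 in the knock-in cells and the lower ACTA2 and LMOD1 under Activin A. Their values are therefore given as a description and without p-values. In the RefSeq annotation of the pig assembly Sscrofa11.1 all 10 are protein-coding and lie on 9 chromosomes, with only TPM1 and TPM2 on the same one.

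Smooth muscle contracts when myosin slides along actin filaments that carry tropomyosin, caldesmon and calponin, and phosphorylation of the myosin light chain switches the motor on. The genes of this machinery are classic targets of serum response factor (SRF), which works with myocardin in smooth muscle and with the actin-sensing cofactors MRTFA and MRTFB in many other cells. Several of them are not restricted to muscle: they are also made in stress fibres of fibroblasts and pericytes and in cultured cells that spread, and TGF-β signalling is a well known inducer of them in those cells.

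The cells were PC-iPS, pig induced pluripotent stem cells that had been reprogrammed from pericytes, labelled as domestic pig and adult. WT PC-iPS were compared with NANOG tdTomato knock-in positive PC-iPS, in which a fluorescent reporter had been inserted at NANOG with CRISPR/Cas9 and which had passed drug selection and sorting for tdTomato. In the same knock-in reporter cells, treatment with Activin A, a ligand that signals through SMAD2 and SMAD3, was compared with SB431542, an inhibitor of the receptors that Activin A and TGF-β use. There were 3 libraries in each of these 4 groups, 12 in all, and each comparison had its own table of 6 libraries. The study kept 3 independently transfected knock-in lines, nanog1, nanog2 and nanog3, and the knock-in libraries carry these names. The study describes the knock-in cultures as mixed populations of transformed cells, so cells within a culture may carry different insertions. No such selection or sort is described for WT cells, and that history and the knock-in cannot be told apart. The labels give the LCDMV medium for every sample, whereas the study's treatment experiments used that medium without LIF; the dose and duration for the sequenced cultures are not given in the labels, and no untreated culture stands in the table of treated cells. Feeder cells had been reduced by letting them attach before the suspended cells were collected. Outside the knock-in lines nothing states that the 3 libraries of a group came from separate cultures, so p-values measure the spread between these samples only, which may be technical.

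Expression was given as FPKM, a fragment count corrected for the length of the gene and the size of the library, with totals of 364241 to 390320 in the 12 libraries. The number of reads is unknown. Relative depth was taken as the commonest ratio of the low values of knock-in library 1 to those of a library, and set to 1 for knock-in library 1. It was 0.566 to 0.631 in WT, 0.733 to 1 in the knock-in cells, and 0.835 to 0.980 in the treated cells, so low genes were measured less finely in WT. Differences are those of group means on the log2(FPKM + 1) scale with the standard error (SE) that limma fitted over all genes of a table, and they understate the change of genes near or below 1 FPKM. A gene was called when its difference was at least 1 in size and its two-sided adjusted p at most 0.05. The labels were checked first. NANOG was 74.5 ± 24.8 FPKM (SD, n = 3) in the knock-in cells and 17.9 ± 9.02 in WT, a difference of 2.06 (adjusted p = 0.025, limma). It was 154 ± 43.0 FPKM under Activin A and 16.9 ± 8.89 under SB431542, a difference of 3.18 (adjusted p = 0.042, limma). SMAD7, a target of the pathway, was 7.34 ± 0.70 and 1.41 ± 0.32 FPKM (adjusted p = 0.024, limma), and the target LEFTY2 was 1.12 ± 0.30 FPKM under Activin A and listed at 0 in the 3 SB431542 libraries. ID1, checked as well, overlapped at 18.6 ± 5.56 and 7.99 ± 6.35 FPKM and was not called (adjusted p = 0.323, limma). Each Activin A library was above the SB431542 library of its number, by 1.84, 0.65 and 1.44. With the library number as a block ID1 was not called either (adjusted p = 0.062, limma). Without any 1 of the 6 treated libraries SMAD7 and LEFTY2 were no longer called, and NANOG was called in 1 of 6 such fits in each comparison, that without WT library 3 and that without SB431542 library 2. The fits that left out a library had no block.

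In the knock-in cells the contractile genes stood at higher levels than in WT, with LMOD1, TAGLN, CNN1 and ACTA2 furthest apart by their ratio of means and ACTG2 alone without a separation. All 10 passed the filter on low values, all 10 group means were higher in the knock-in cells, and in 9 of them every knock-in library lay above every WT library, a separation seen in that direction in 19% of all genes tested. By the rule for all genes 7 were called higher (TAGLN, ACTA2, LMOD1, MYL9, CNN1, TPM1 and MYH9), beside 1.61% of all genes tested; since the genes were chosen on this contrast, nothing is read from that count. The median of the 10 differences was 1.70, beside -0.001 over all genes tested. Between Activin A and SB431542 the same genes divided. In ACTA2, LMOD1, MYL9, TPM1 and TPM2 every SB431542 library lay above every Activin A library (10.8% of all genes tested), and the other 5 overlapped. The 5 that separated the treatments were also among the 9 set apart between knock-in and WT cells, a pattern of 1.99% of the genes tested in both tables. In 7 genes each Activin A library was below the SB431542 library of its own number (25.2% of all genes tested). Only ACTA2 was called lower under Activin A (0.0357% of all genes tested), and with the library number as a block ACTA2 and LMOD1 were (0.186%). Since the choice of genes used this contrast as well, nothing is read from these counts. The median of the 10 differences was -0.42, beside -0.004 over all genes tested. In bulk RNA, fewer cells of a type and less RNA per cell cannot be told apart.

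**Figure D1:**
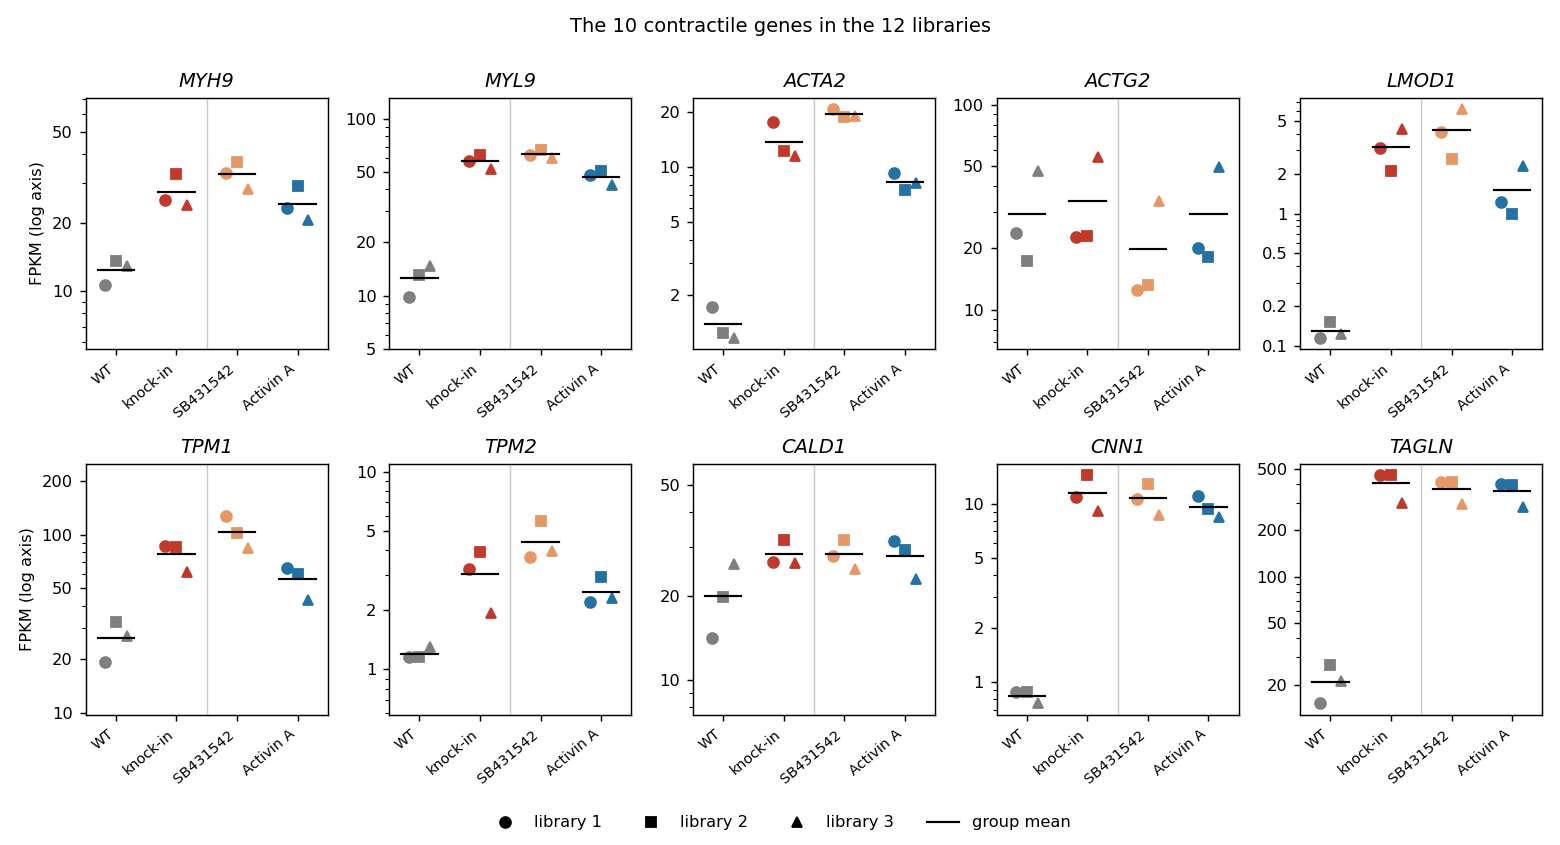
FPKM of each of the 10 genes (log axis, its own range in each panel) in the 3 libraries of WT PC-iPS (grey), knock-in positive (red), SB431542 (orange) and Activin A (blue); the marker shape gives the library number, the black bar the group mean, and the vertical line separates the 2 tables, which were not tested against each other. In 9 panels the 3 red points lie above the 3 grey ones, in ACTG2 they do not, and ACTA2, LMOD1, TPM1, TPM2 and MYL9 have the 3 blue points under the 3 orange ones.

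The motor was described by a heavy and a light chain. MYH9 (ENSSSCG00000000145, chromosome 5, 11365603 to 11456475) encodes the heavy chain of nonmuscle myosin IIA, which most cells use for stress fibres. It stood at 25.1, 32.6 and 23.9 FPKM in knock-in libraries 1 to 3 and at 10.7, 13.7 and 12.9 FPKM in WT libraries 1 to 3. Every knock-in library was above every WT library, at a ratio of means of 2.19 and a difference of 1.06 (SE 0.15). Leaving out knock-in library 1 or 2 or WT library 1 took it under the thresholds for a call, with differences of 0.93 to 1.15 over the 6 such fits. Under Activin A it was 23.2, 29.0 and 20.6 FPKM and under SB431542 33.1, 36.9 and 28.1 FPKM. The groups overlapped, since Activin A library 2 lay above SB431542 library 3, although each Activin A library was below the SB431542 library of its own number; the difference was -0.42 (SE 0.15, or 0.06 with the number as a block).

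MYL9 (ENSSSCG00000036402, chromosome 17, 39788165 to 39795240) encodes the regulatory light chain of smooth muscle myosin, the protein whose phosphorylation starts contraction. Its level was 58.0, 62.9 and 52.4 FPKM in the knock-in libraries and 9.87, 13.1 and 14.6 FPKM in WT. The groups were far apart compared with their spread, with a ratio of means of 4.61 and a difference of 2.13 (SE 0.15). The Activin A libraries held 48.3, 50.9 and 42.3 FPKM and the SB431542 libraries 62.8, 66.7 and 60.1 FPKM. Here too no library overlapped, but the step was small, -0.42 (SE 0.09, or 0.05 with the block), and did not reach the fold needed for a call.

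The smooth muscle actins went different ways. ACTA2 (ENSSSCG00000010447, chromosome 14, 100868145 to 100886732) encodes α smooth muscle actin, which is also a common marker of myofibroblasts. In the knock-in libraries it was 17.5, 12.2 and 11.4 FPKM, and in WT 1.73, 1.25 and 1.17 FPKM. The lowest knock-in library was well above the highest WT library, the ratio of means was 9.90, and the difference was 2.61 (SE 0.20). Under Activin A ACTA2 was measured at 9.28, 7.52 and 8.17 FPKM, and under SB431542 at 20.6, 18.7 and 18.9 FPKM. All 3 SB431542 libraries were above all 3 Activin A libraries, 2.33 times as high by the means, with a difference of -1.13 (SE 0.10, or 0.07 with the block). Same-numbered libraries differed by -1.07, -1.21 and -1.12. In fits without the block the call was lost whichever of the 6 libraries was left out, while the difference stayed between -1.21 and -1.07.

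ACTG2 (ENSSSCG00000008294, chromosome 3, 69097366 to 69121542) encodes γ smooth muscle actin, the form typical of gut and bladder muscle. Its FPKM was 22.7, 22.9 and 55.6 in the knock-in libraries and 23.8, 17.3 and 47.3 in WT. These groups overlapped, and library 3 was the high one in each; the difference of 0.18 (SE 0.44) turned to -0.23 without knock-in library 3 and to -0.12 without WT library 2. Activin A gave 20.0, 18.1 and 49.8 FPKM, and SB431542 12.5, 13.2 and 33.8 FPKM. The groups overlapped again through their library 3, yet each Activin A library was above the SB431542 library of its number, by 0.63, 0.43 and 0.55, so that the difference of 0.54 had an SE of 0.49 without the block and 0.07 with it. ACTG2 was the only gene of the 10 with a higher mean under Activin A. The 6 actin genes encode nearly identical proteins and have similar coding sequences. How the authors' counting divided any shared fragments is not given, so ACTA2 and ACTG2 levels are uncertain to that extent.

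LMOD1 (ENSSSCG00000031201, chromosome 10, 24165293 to 24194823) encodes leiomodin 1, which starts new actin filaments in smooth muscle. It was 3.11, 2.10 and 4.37 FPKM in the knock-in libraries and 0.12, 0.15 and 0.12 FPKM in WT. The groups lay far apart, but the ratio of means of 24.5 rests on very low WT values; the difference was 1.86 (SE 0.20) with 1 added to the FPKM and 4.46 with 0.01 added. Activin A libraries had 1.23, 1.00 and 2.30 FPKM against 4.17, 2.58 and 6.14 FPKM under SB431542. Every SB431542 library was higher, although Activin A library 3 came close to SB431542 library 2, and same-numbered libraries differed by -1.22, -0.84 and -1.11. The difference was -1.06 with an SE of 0.29 without the block and 0.11 with it.

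Tropomyosins lie along the actin filament and gate the access of myosin. TPM1 (ENSSSCG00000004570, chromosome 1, 108986981 to 109016090) was 86.3, 85.8 and 62.1 FPKM in the knock-in libraries and 19.4, 32.4 and 26.9 FPKM in WT. The groups did not overlap, at a ratio of means of 2.98 and a difference of 1.55 (SE 0.21). Values of 65.2, 60.3 and 43.2 FPKM under Activin A stood beside 127, 102 and 83.9 FPKM under SB431542. Again no Activin A library reached the lowest SB431542 library, and the difference was -0.88 (SE 0.20, or 0.06 with the block).

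TPM2 (ENSSSCG00000005316, chromosome 1, 236402249 to 236410390), the β-tropomyosin gene, was far lower. Its FPKM was 3.22, 3.92 and 1.94 in the knock-in libraries and 1.16, 1.15 and 1.29 in WT, separate but with knock-in library 3 close to WT. The difference was 0.84 (SE 0.20), under the fold for a call; it was called at 1.05 without knock-in library 3, at 1.09 as TPM, and at 1.21 and 1.27 with pseudocounts of 0.1 and 0.01. Under Activin A TPM2 was 2.19, 2.94 and 2.31 FPKM, and under SB431542 3.69, 5.65 and 3.96 FPKM. SB431542 was higher in each library, with a difference of -0.63 (SE 0.17, or 0.09 with the block). Tropomyosin genes share exons of similar sequence and use several promoters, and FPKM per gene does not tell muscle from nonmuscle isoforms.

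Of the proteins that bind the thin filament, CALD1 (ENSSSCG00000016535, chromosome 18, 14267955 to 14486641), caldesmon, differed least. It was 26.6, 31.8 and 26.3 FPKM in the knock-in libraries and 14.1, 19.9 and 26.1 FPKM in WT. The groups touched without overlapping, since WT library 3 was just below the lowest knock-in library, and the difference was 0.51 (SE 0.21). Activin A libraries at 31.5, 29.2 and 23.0 FPKM and SB431542 libraries at 27.9, 31.7 and 25.1 FPKM were mixed, with a difference of -0.02 (SE 0.14) that turned positive without Activin A library 3 or SB431542 library 2.

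CNN1 (ENSSSCG00000013614, chromosome 2, 70183370 to 70190756) encodes calponin 1, which restrains the myosin motor and is among the more smooth-muscle-restricted of the 10. Knock-in libraries held 10.9, 14.5 and 9.15 FPKM, and WT libraries 0.87, 0.88 and 0.76 FPKM. The lowest knock-in library was far over the highest WT library, with a ratio of means of 13.8 and a difference of 2.75 (SE 0.18). With Activin A it was 11.1, 9.42 and 8.39 FPKM, and with SB431542 10.7, 12.9 and 8.65 FPKM. These overlapped, and same-numbered libraries differed by 0.05, -0.42 and -0.04, in no common direction, with a difference of -0.13 (SE 0.16, or 0.11 with the block).

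TAGLN (ENSSSCG00000015073, chromosome 9, 44561756 to 44567385) encodes transgelin, an actin cross-linking protein of the calponin family that is also called SM22α. It was by far the most abundant of the 10 in the knock-in libraries, at 457, 453 and 299 FPKM, against 15.2, 26.6 and 21.0 FPKM in WT. The ratio of means was 19.2 and the difference 4.21 (SE 0.23), between 4.01 and 4.41 when each library was left out. Under Activin A it was 402, 393 and 282 FPKM and under SB431542 413, 410.0 and 296 FPKM. Same-numbered libraries of these groups differed by only -0.04, -0.06 and -0.07. The difference of -0.06 had an SE of 0.19 without the block and 0.04 with it, and its sign turned without Activin A library 3, SB431542 library 1 or SB431542 library 2.

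The plot of the differences in both comparisons places the genes side by side. TAGLN and CNN1, which differed by 4.21 and 2.75 between knock-in and WT cells, had differences of -0.06 and -0.13 between the treatments. ACTA2 and LMOD1 differed by 2.61 and 1.86 in the first comparison and by -1.13 and -1.06 in the second. TPM1, TPM2, MYL9 and MYH9 lay between these, with -0.88 to -0.42 in the second. Of the 13696 genes tested in both, 2 were called higher in the knock-in cells and lower under Activin A (0.0146%): ACTA2 and VCL, the gene for vinculin of focal adhesions, which is not one of the 10 and was named after its values were seen. VCL differed by 1.53 (SE 0.15, adjusted p = 0.004, limma) and by -1.45 (SE 0.16, adjusted p = 0.042, limma), the second call being lost, as for ACTA2, whichever treated library was left out. With the block in the second comparison 8 genes met that pattern (0.0584%), LMOD1 among them, and 10 genes were called higher in both comparisons (0.073%).

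**Figure D2:**
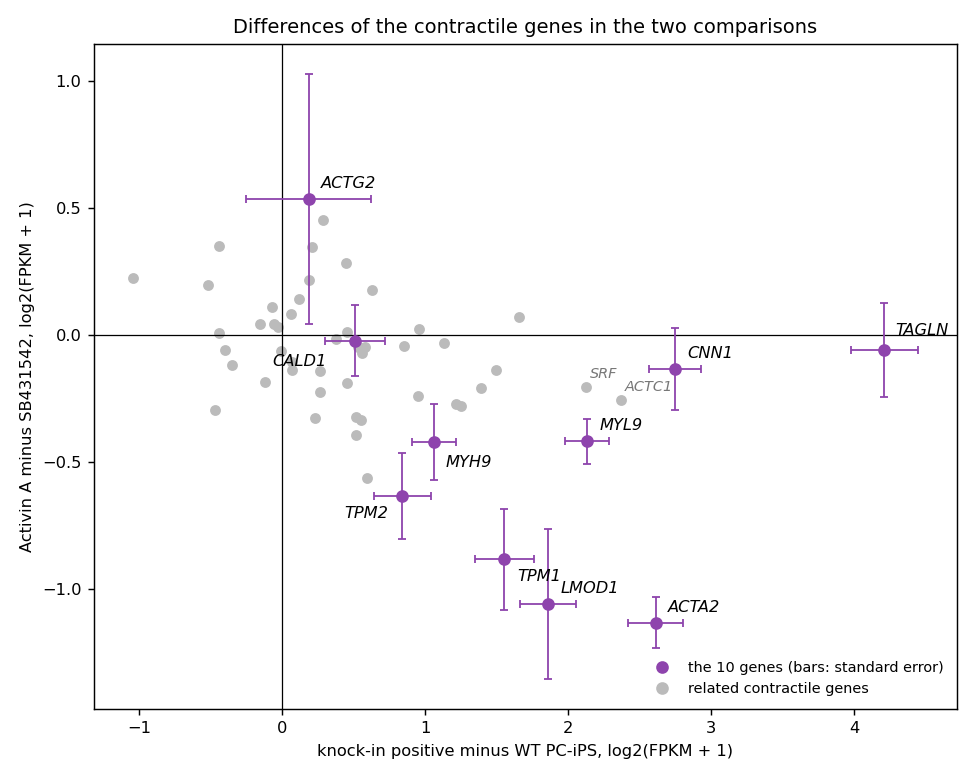
Each point is a gene, with the difference between knock-in positive and WT PC-iPS on the x axis and between Activin A and SB431542 on the y axis, both in log2(FPKM + 1); purple points with SE bars are the 10 genes and grey points are related contractile genes tested in both tables. TAGLN lies far right at 4.21 near 0 on the y axis, ACTA2 and LMOD1 lie at the lower right, and ACTG2 is the only purple point with a y value above 0.

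Order of abundance, compared per gene length, also differed. In the knock-in cells TAGLN led at a mean of 403 ± 90.3 FPKM (SD, n = 3), at or above 99.2% of the 13930 genes with a group mean of at least 0.1 FPKM, followed by TPM1 at 78.1 ± 13.8 and MYL9 at 57.7 ± 5.24. TPM1 and MYL9 overlapped, the lowest TPM1 library being 62.1 FPKM and the highest MYL9 library 62.9 FPKM, although TPM1 was the higher in each library. ACTG2 at 33.7 ± 18.9, CALD1 at 28.2 ± 3.11 and MYH9 at 27.2 ± 4.74 could not be ordered beyond their spread, nor could ACTA2 at 13.7 ± 3.31 and CNN1 at 11.5 ± 2.75, or LMOD1 at 3.20 ± 1.14 and TPM2 at 3.03 ± 1.01, and library 3 brought ACTG2 into the range of MYL9. In WT the order was another one: ACTG2 at 29.4 ± 15.8, TPM1 at 26.2 ± 6.57, TAGLN at 20.9 ± 5.73 and CALD1 at 20.0 ± 5.97 overlapped, MYL9 and MYH9 followed at 12.5 ± 2.43 and 12.4 ± 1.53, with MYL9 reaching into the range of CALD1, and ACTA2, TPM2, CNN1 and LMOD1 were under 2 FPKM in every library. Under both treatments TAGLN, TPM1 and MYL9 again led, by their means of 359, 56.2 and 47.2 FPKM with Activin A and 373, 104 and 63.2 FPKM with SB431542. With Activin A, TPM1 and MYL9 overlapped, and in library 3 ACTG2 at 49.8 FPKM was above both. Added up, the 10 genes gave 546 to 722 FPKM per knock-in library and 96.9 to 152 FPKM per WT library. TAGLN was 54.7% to 64.3% of that sum in knock-in cells and 13.8% to 21.1% of it in WT, and without it the sums were 247 to 269 and 81.7 to 131 FPKM. Under Activin A the sum was 482 to 614 FPKM and under SB431542 564 to 716 FPKM; these ranges overlapped, although each Activin A library was below the SB431542 library of its number. Without TAGLN the sums were 200.1 to 212 FPKM under Activin A and 269 to 303 FPKM under SB431542, which did not overlap.

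Within their gene families, the genes other than CALD1, for which no family was set, kept to different shares, several of them shown in the plot of family shares. TAGLN was 9.91% ± 2.07 (SD, n = 3) of the FPKM of the calponin family in WT and 56.5% ± 4.52 in the knock-in cells; the family here is TAGLN, TAGLN3, CNN1, CNN2 and CNN3, and TAGLN2 was not matched. CNN3, the widely expressed calponin, was 79.8% of it in WT and 34.5% in the knock-in cells. LMOD1 went from 0.35% ± 0.05 to 10.7% ± 6.25 of the leiomodins and tropomodulins, of which the tropomodulin TMOD3 was the most abundant in every group. ACTA2 remained a minor actin at 0.06% ± 0.01 in WT, 0.30% ± 0.10 in the knock-in cells, 0.19% ± 0.03 under Activin A and 0.45% ± 0.07 under SB431542, while ACTB and ACTG1 each held 44.9% to 53.3% of the actin FPKM in the group means. ACTG2 had the lower mean share in the knock-in cells, where its libraries ran from 0.49% to 1.13%, overlapping the 0.91% to 2.02% of WT. TPM1 was 7.01% ± 0.71 of the tropomyosins in WT and 13.9% ± 2.32 in the knock-in cells, below TPM3 and TPM4 in all 4 group means. MYH9 was 64.3% ± 10.2 of MYH9, MYH11 and MYH14 in WT and 89.6% ± 6.88 in the knock-in cells; MYH10 was not matched, so this is no share of all nonmuscle myosin.

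**Figure D3:**
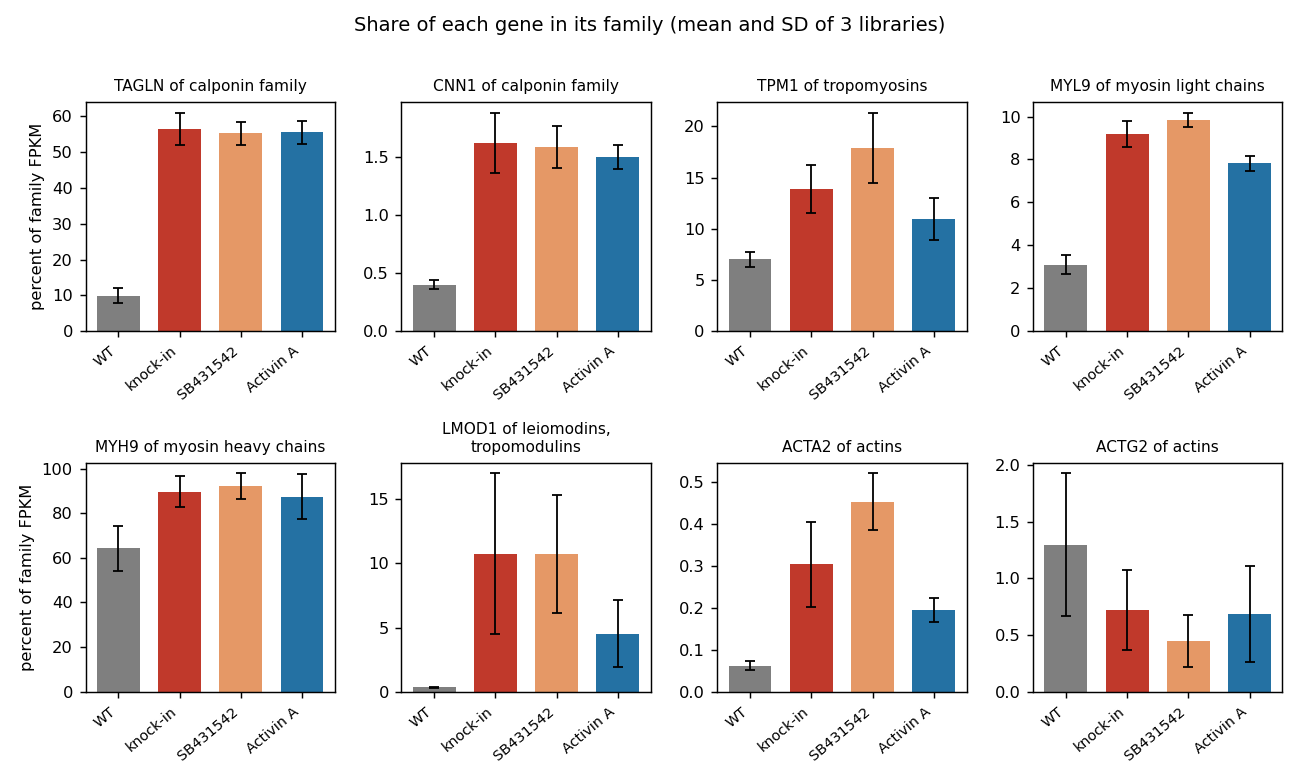
Bars give the share of a gene in the summed FPKM of the matched members of its family, in percent, as the mean of 3 libraries with SD bars, for WT PC-iPS, knock-in positive, SB431542 and Activin A; axes start at 0 and differ between panels. TAGLN stands at 9.91% in WT and at 55.2% to 56.5% in the other 3 groups, and ACTA2 stands at 0.45% under SB431542 and 0.19% under Activin A. The MYL9 panel gives its share of MYL9, MYL12A and MYL6 only, since MYL12B and MYL6B were not matched.

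In several of these genes libraries of the same number stood alike in their groups, as the plot of deviations shows, although over all genes same-numbered knock-in and WT libraries correlated only at -0.02 to 0.10 in their deviations. ACTG2 was highest in library 3 of all 4 groups, at 2.44 times the mean of libraries 1 and 2 in the knock-in cells, 2.30 in WT, 2.62 under Activin A and 2.63 under SB431542. Library 3 was the highest in all 4 groups in 8.08% of the 13696 genes tested in both tables, and it was at least 1.9 times each other library in all 4 groups in 4 genes (0.0292%), ACTG2, KIRREL3, TPBGL and DCC, a threshold set after ACTG2 had been seen. LMOD1 was also highest in library 3 of the knock-in, Activin A and SB431542 groups, at 1.68, 2.07 and 1.82 times the others, but not in WT, at 0.92. TAGLN went the other way in those 3 groups, at 0.66, 0.71 and 0.72, with 1.01 in WT. ACTA2 was highest in library 1 of all 4 groups, as were 2.24% of all genes tested in both, MYH9 in library 2 (3.06%), and CNN1 was lowest in library 3 of all 4 (6.53%). What a number shares between groups is not stated for the treated and WT libraries.

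**Figure D4:**
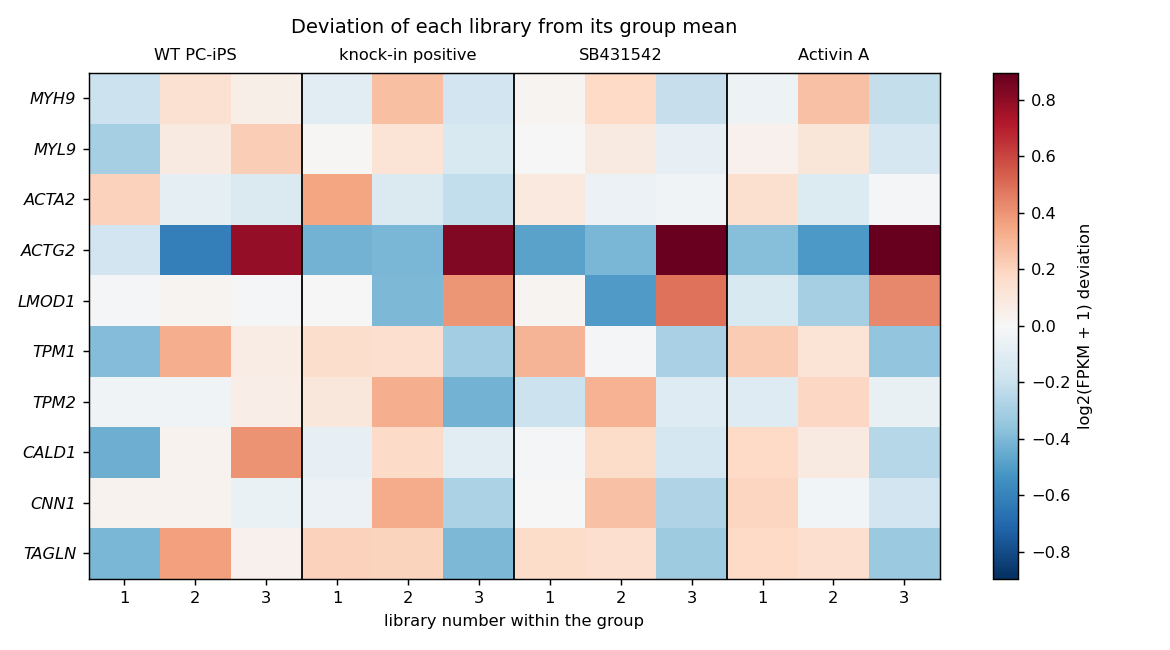
Colour gives the deviation of a library from the mean of its group on the log2(FPKM + 1) scale, red above and blue below, for the 10 genes (lines) and the 3 numbered libraries of each group (columns). ACTG2 is red in library 3 of all 4 groups, LMOD1 in library 3 of 3 groups, and TAGLN, TPM1 and CNN1 are blue in library 3 of the knock-in, SB431542 and Activin A groups.

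To see how far the wider machinery went along, 65 related contractile and cytoskeletal genes were listed, of which 58 were matched and 46 passed the filter in the first comparison. Of these, 8 were called higher in the knock-in cells and 0 lower (limma), beside 1.61% and 0.706% of all genes tested; at an unadjusted p under 0.05, 20 were higher and 3 lower, beside 16.1% and 12.5% of all genes tested. The median difference was 0.33, beside -0.001 over all genes tested, and in 23 of the 46 every knock-in library was above every WT library, beside 19% of all genes tested. The list was compiled with earlier results of these data known and is no independent evidence. ACTC1, the cardiac α-actin, had the largest difference, 2.37 (SE 0.15, adjusted p = 0.001, limma). It rose from 8.36 ± 1.77 FPKM (SD, n = 3) in WT to 44.9, 46.6 and 48.7 FPKM in the knock-in libraries. SRF, the transcription factor at the top of the pathway, rose from 23.7, 22.6 and 24.6 FPKM to 103, 96.5 and 122 FPKM, a difference of 2.13 (SE 0.11, adjusted p = 0.001, limma). For both the groups lay far apart, and the call held whichever library was left out. By ratio of means ACTA1 exceeded ACTC1, at 108 against 5.59, but on WT values of at most 0.015 FPKM, and it was not called. The LIM protein CSRP1 rose by 1.66 and the Z-disc and stress fibre protein PDLIM5 by 1.25, calls that held in all 6 fits as well. CNN2, a nonmuscle calponin, rose by 1.49 and the γ-cytoplasmic actin ACTG1 by 1.13, with the call lost without knock-in library 1 for CNN2 and without knock-in library 2 or WT library 2 for ACTG1. FHL2 and PDLIM7, with differences of 1.39 and 1.21, kept it in only 1 of 6 fits, that without WT library 2 for FHL2 and without WT library 3 for PDLIM7. In all, 5 of the 8 remained called without knock-in library 1 and 5 without knock-in library 2. The β-actin gene ACTB, at 1188 ± 123 FPKM in WT and 2302 ± 114 in the knock-in cells, missed the fold for a call with 0.96 (adjusted p = 0.010, limma), and so did TPM4 with 0.95 and CSRP2 with 0.85.

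Other parts of the machinery did not pass the test. Differences were 0.56 (SE 0.15, adjusted p = 0.068, limma) for the essential light chain MYL6, 0.45 for the nonmuscle regulatory light chain MYL12A and 0.45 for the light chain kinase MYLK. The kinases ROCK1 and ROCK2 differed by 0.07 each and the phosphatase subunits PPP1R12A and PPP1CB by -0.07 and -0.06. MYH14, a nonmuscle heavy chain, was -1.04 (SE 0.35, adjusted p = 0.108, limma), and tropomodulins TMOD2 and TMOD3 were -0.40 and -0.35. Among the partners of SRF, MRTFA was 22.5 ± 5.21 FPKM in the knock-in cells and 21.3 ± 2.86 in WT, with a difference of 0.06. MRTFB differed by -0.16, and MYOCD, the gene for myocardin, was listed at 0 in all 12 libraries. KLF4, which is not counted as a partner here, differed by 0.12. It is also one of the factors used to reprogram these cells, and whether its level includes RNA of the introduced factor is not known.

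Between Activin A and SB431542, 47 of the related genes were tested and limma called 0 in either direction, with or without the block (all genes: 0.0571% higher and 0.0357% lower, or 0.521% and 0.186% with the block); at an unadjusted p under 0.05, 2 were higher and 1 lower, beside 6.07% and 6.76% of all genes tested. The median difference was -0.05. SRF was 81.7, 76.3 and 108 FPKM under Activin A and 98.1, 88.4 and 119 FPKM under SB431542, overlapping, with a difference of -0.20 (SE 0.16, adjusted p = 0.637, limma); it was lower in each of the 3 same-numbered pairs, and not called with the block either (SE 0.05, adjusted p = 0.099). ACTC1 overlapped as well, at 34.2 ± 3.08 and 41.3 ± 7.07 FPKM, with -0.26 (adjusted p = 0.472, limma). ACTB, ACTG1, CSRP1 and CNN3 differed by 0.03, -0.03, 0.07 and -0.05. A missed threshold does not show that these levels were the same.

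**Figure D5:**
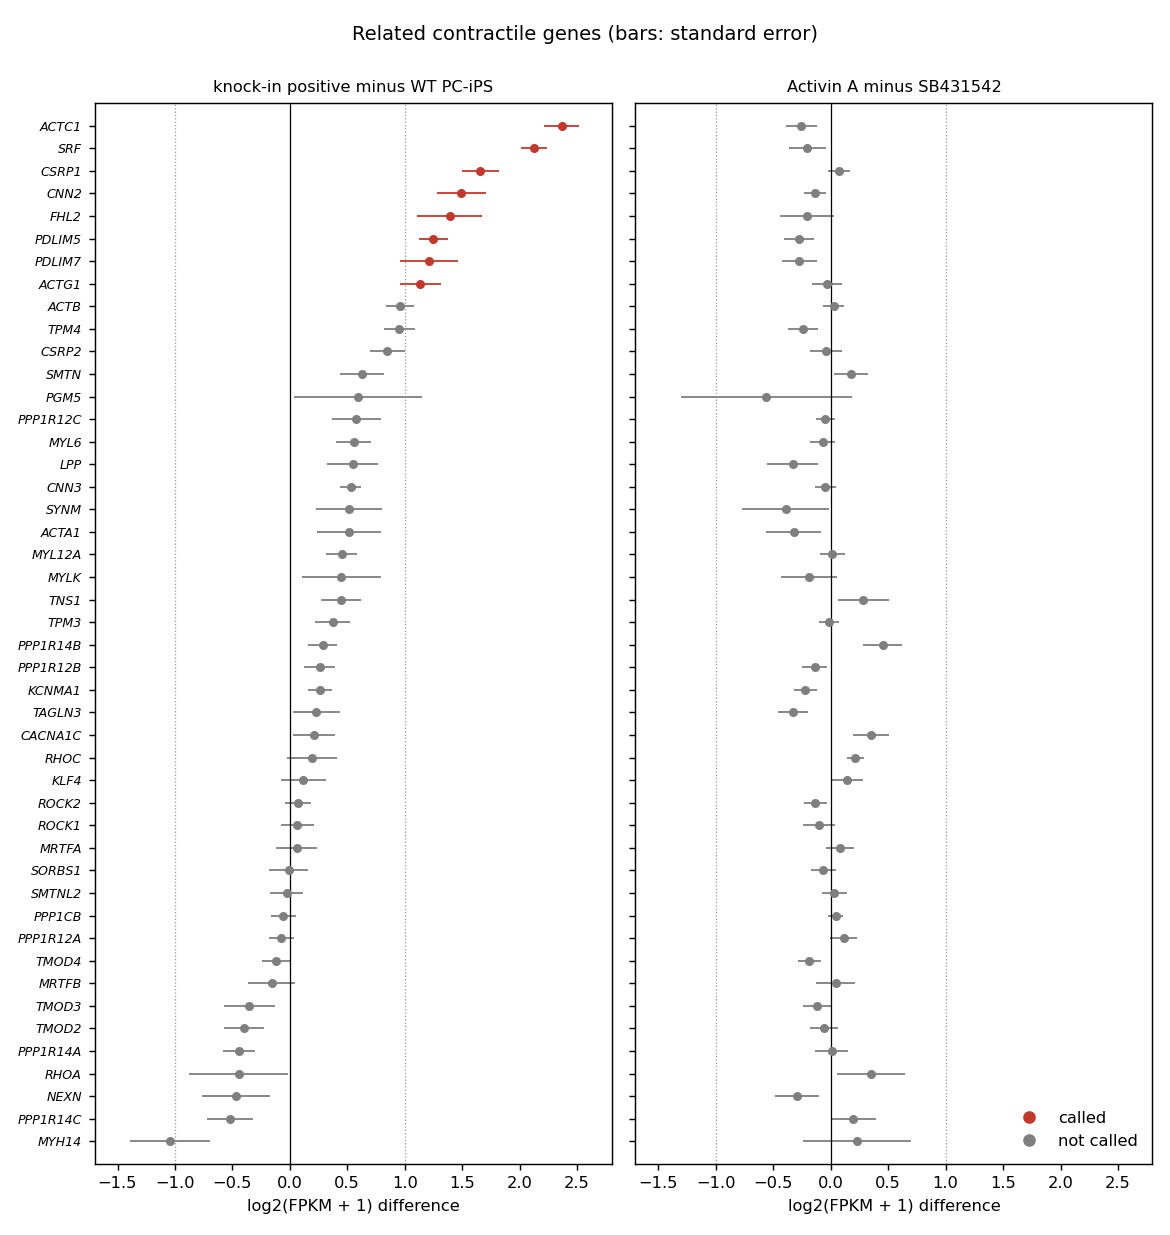
Difference in log2(FPKM + 1) with SE bars for the 46 related contractile genes tested between knock-in positive and WT PC-iPS (left), in the order of that difference, and the same genes between Activin A and SB431542 (right); red points are called, grey are not, and dotted lines mark the fold of 1. On the left 8 points from ACTG1 (1.13) to ACTC1 (2.37) are red, and on the right 0 are.

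The name of the set was checked against 9 genes that define differentiated smooth muscle, all 9 of them matched. MYH11, the smooth muscle myosin heavy chain, was at most 0.10 FPKM in any library, and KCNMB1, CASQ2 and ITGA8 were at most 0.11 FPKM. DES, desmin, was 0.72, 0.48 and 0.07 FPKM in WT and at most 0.11 FPKM in the other groups, and MYOCD was listed at 0 throughout. SMTN, SYNM and PPP1R14A alone passed the filter, with differences of 0.63, 0.51 and -0.44 between knock-in and WT cells, and none was called in either comparison. The list summed to 8.03 to 10.6 FPKM per knock-in library, 6.31 to 7.28 FPKM per WT library, 7.97 to 11.0 FPKM under Activin A and 8.46 to 16.2 FPKM under SB431542. The 10 genes are therefore described here by their names and as contractile genes, not as a sign of smooth muscle cells.

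Markers of other cells that the cultures could hold were measured beside them. Of 18 matched fibroblast and feeder genes 14 were tested, and DCN and TWIST2 were called higher in the knock-in cells (limma), beside 1.61% of all genes tested, calls lost without single libraries in 4 and 3 of 6 fits. Of the 14 differences 10 were above 0 and 4 below, COL1A1 among these, at 0.62 FPKM in knock-in and 1.13 FPKM in WT with each knock-in library the lower. LOX, the most abundant gene of the list, overlapped at 39.0 ± 4.27 FPKM in knock-in and 37.0 ± 3.85 FPKM in WT, a difference of 0.07. Between the treatments LOX overlapped too, with a difference of -0.14. COL3A1 was uneven, at 0.77, 3.32 and 23.2 FPKM in knock-in libraries 1 to 3, and this enters the sums. The list summed to 85.5 to 113 FPKM per knock-in library and 54.3 to 73.5 FPKM per WT library, with FAP at 0. Between the treatments it summed to 107 to 131 FPKM under Activin A and 74.1 to 84.6 FPKM under SB431542; 9 of its 14 differences were above 0 and 5 below, with a median of 0.09, 0 were called (limma; all genes 0.0571% higher), and COL1A2 and COL3A1 were called higher with the block (all genes 0.521%). Of 12 pericyte genes 10 were tested, and PDGFRB was called higher in the knock-in cells (limma), again beside 1.61% of all genes. PDGFRB stood at 9.28 ± 1.84 against 2.32 ± 0.80 FPKM. Of the 10 differences 8 were above 0 and 2 below, with a median of 0.13. The abundant MCAM and NOTCH3 overlapped, at -0.02 and 0.14. This list summed to 37.5 to 47.1 FPKM in knock-in and 28.3 to 32.9 FPKM in WT. Its sums were 37.5 to 46.1 FPKM under Activin A and 42.8 to 47.0 FPKM under SB431542. Between the treatments 4 differences were above 0 and 6 below, and 0 were called. PDGFRB overlapped there, at 7.83 and 11.5 FPKM. Of 20 striated muscle genes 16 were matched, without MYH6, TNNI3, MYL7 and TTN, and 0 were called in either comparison. They summed to 3.24 to 6.33 FPKM in knock-in and 2.98 to 5.11 FPKM in WT. Their sums were 3.92 to 5.63 FPKM under Activin A and 5.59 to 10.1 FPKM under SB431542. Above and below 0 were 3 and 3 differences in the first comparison and 1 and 6 in the second. MYH7 separated the groups in both, at 1.76 in knock-in against 0.69 FPKM in WT, a difference of 0.70. It was 1.28 FPKM under Activin A against 3.70 FPKM under SB431542, a difference of -1.01. Of 12 pluripotency genes 9 were matched, without POU5F1, PODXL and DPPA4. The matched ones summed to 294 to 517 FPKM in knock-in and 148 to 166 FPKM in WT. NANOG and LIN28A were called higher (limma), beside 1.61% of all genes. Of the 7 tested 5 differences were above 0 and 2 below, and LIN28A, at a mean of 185 against 40.2 FPKM, was the largest part of the knock-in sum. The list summed to 309 to 507 and 336 to 653 FPKM under Activin A and SB431542, where NANOG was higher under Activin A, as given above, and LIN28A differed by -1.55, called lower with the block only (all genes 0.186%), and 5 of the 7 differences were below 0. The part that other cells, or the lower relative depth of WT, have in the levels of the 10 genes was not tested.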

How the data were processed

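RNA from 12 libraries was sequenced by the study. The authors trimmed the reads, aligned them to the pig genome with HISAT2 (2.0.4 in the submitters' notes) and deposited FPKM per gene from StringTie (1.3.3), with separate tables for the comparisons. The authors' count test used DESeq2 on featureCounts output; counts were not used here, so depth and counting error are unknown. The 10 genes and every list were chosen with earlier results of these data known.

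Per comparison, genes with at least 0.1 FPKM in 3 of 6 libraries were kept (14014 and 13999), a pseudocount of 1 was added, and limma 3.58.1 (R 4.3.3, data.table, version 1.17.8) was fitted to log2 values with a variance trend and Benjamini-Hochberg adjustment. The tables were never tested against each other. The outcome of a check of the test on simulated data is not given here, and no result rests on it. Symbols came from the tables for 17451 genes and from a gene name table for 965 more, NANOG among them; coordinates are RefSeq's, matched by symbol. Python 3.11.15 and matplotlib 3.10.9 made the plots.

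Pairing by library number was checked on deviations from group means over 13696 genes. Same-numbered Activin A and SB431542 libraries correlated at 0.40, 0.59 and 0.54 and were taken as paired; knock-in and WT libraries, at -0.02, 0.01 and 0.10, were not.

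Named genes are the 10, related genes that were called or are close paralogs, SRF with its partners, KLF4, defining smooth muscle genes, abundant list markers and label checks. Others are marked in the text. Alternatives were scaling to TPM, by median ratios or by quantiles; pseudocounts of 0.1 and 0.01; a filter of 1 FPKM or none; and no variance trend, the block, adjusted p alone and leaving out each library. Leaving out a library was always done without the block. No sequence was analysed.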

Additional observations from a re-analysis of the deposited data

How the results depend on the processing

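Of the 10 genes, the differences between knock-in and WT cells kept their sign under every alternative apart from ACTG2, and those of ACTA2, CNN1, LMOD1 and TPM2 grew by more than the spread between libraries with small pseudocounts (LMOD1 from 1.86 to 4.46, ACTA2 from 2.61 to 3.29, CNN1 from 2.75 to 3.74). Between the treatments, only TAGLN and CALD1 changed sign. Genes called higher and lower in knock-in cells were 225 and 99; they were 346 and 192 at a pseudocount of 0.1, 320 and 181 at 0.01, 157 and 42 without a filter, 326 and 156 as TPM, 684 and 328 by adjusted p alone, and 119 to 298 and 28 to 142 without single libraries. Related genes called higher there were 8, but 6 without a filter, 9 with scaling by quantiles and 12 by adjusted p alone. Without single libraries they were 5 to 8 (lower: 0 to 1, MYH14 without knock-in library 3). With the library number as a replicate block, whose pairing these groups did not show, the counts were 172 and 60, and 5 for the related genes (ACTC1, SRF, CSRP1, PDLIM5 and CNN2), and the pericyte gene ANPEP was called higher beside PDGFRB.

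Genes called higher and lower under Activin A were 8 and 5. They were 5 and 3 at a pseudocount of 0.01, 3 and 2 without a filter, 2 and 3 with a filter of 1 FPKM, 3 and 4 without the variance trend, 13 and 6 by adjusted p alone, and 0 to 4 and 0 to 1 without single libraries. With the replicate block, in the groups that are paired, they were 73 and 26; the block added LMOD1 to the called genes of the 10 and changed no other call of the 10 or of the related genes there. Of the values recomputed for the 10 genes in both comparisons, 9 lost a call (MYH9 and ACTA2, without single libraries) and 5 gained one (TPM2 and LMOD1). Those that moved by more than the spread were 12, all in ACTA2, CNN1, LMOD1 and TPM2. These tallies leave out the alternative of adjusted p alone. For 43 other genes checked in the same way, most of those named, 67 recomputed values lost a call, 9 gained one and 1190 did neither; the causes were not tested.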
